A study of Homo sapiens with 6 samples.

Results

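Cancer-testis and germline genes were examined in A-498 cells, an established human renal cell carcinoma line, with and without zebularine, a nucleoside that traps DNA methyltransferases once it is built into DNA. The members were all probe sets whose array annotation gives only symbols from a list of 25 germline genes or symbols starting with MAGEA, MAGEB, MAGEC, GAGE, XAGE, PAGE, SSX, CTAG or SPANX. This rule uses names and no measured value, though the names were chosen with earlier results of these data known. The rule found 80 of 22277 probe sets, which carry 78 of 13119 gene symbols. It found 20 of the 25 listed genes; MAEL, STK31, ACRBP, TPTE and ROPN1 were not analysed here. By their names alone the rule also took in 6 probe sets of SSX2IP, which encodes a partner protein of SSX2 and is no SSX gene, and 4 of CTAGE genes, so counts are given with these 10 and for the other 70.

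The untreated group was 3 cultures grown for 120 h in medium alone, and the treated group was 3 cultures with 1000 µM zebularine over the same 120 h, both split during that time. The labels number the biological replicates 1 to 3 in both groups, and the untreated and treated arrays of 1 number are called a pair here. An XTT assay is described as showing no clear toxicity. All arrays come from 1 cell line, so the cultures are replicates of that line only. Array medians ran from 117.9 to 140.7 signal units and their 90th percentiles from 1526.5 to 1599.7; the maxima of both arrays of pair 3, 31176.4 and 27499.7, lay below those of the other 4, at 58719.2 or more. Of 10 renal epithelial markers on the array 8 were bright enough to test, with PAX8 at 635.8 to 1237.1 and KRT18 at 12161.1 to 21525.6. LRP2 (20.1 to 102.7) and AQP1 (9 to 129.5) were not. KRT19 read 34.5 to 230.6 untreated and 209.8 to 384.9 treated, and MME 126.7 to 226.9 and 15.2 to 86.4. CDH6, a kidney cadherin, fell by 2.85 ± 0.42 on the log2 scale (limma, adjusted p = 0.0206). Markers of leukocytes, endothelium and fibroblasts (11 genes) stayed at or under 114.8 on every array. Of 9 germ cell and testis markers only SOX9, which kidney cells also use, was bright enough to test.

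Cancer-testis genes are active in male germ cells and silent in most adult tissues, and many are switched on again in tumours. Their silence in somatic cells is tied to methylation of CpG dinucleotides around their starts, and inhibitors of DNA methyltransferases are known to reactivate some of them. Many belong to young multigene families on the X chromosome whose copies are nearly identical, and 51 of the 78 symbols among the members are on X.

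Most of these probe sets read close to the bottom of the scale with or without the drug. A signal of 78.6, the 40th percentile of all values, was used as the level a probe set had to reach on at least 3 of 6 arrays to be tested. Of the 80 probe sets 13 reached it (16.2%, against 61% of all probe sets), and of the 70 without SSX2IP and CTAGE only 5 did. On 48 of the 80 no array reached it. The median signal of the 70 was 13.85, 11.95 and 13.35 on the untreated and 20.55, 26.85 and 17.85 on the treated arrays of pairs 1, 2 and 3. The 5 were PRAME, SPA17, CABYR and 2 SPANX probe sets. A probe set can pass this filter through its treated arrays alone, so the 5 do not stand for all members.

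**Figure D1:**
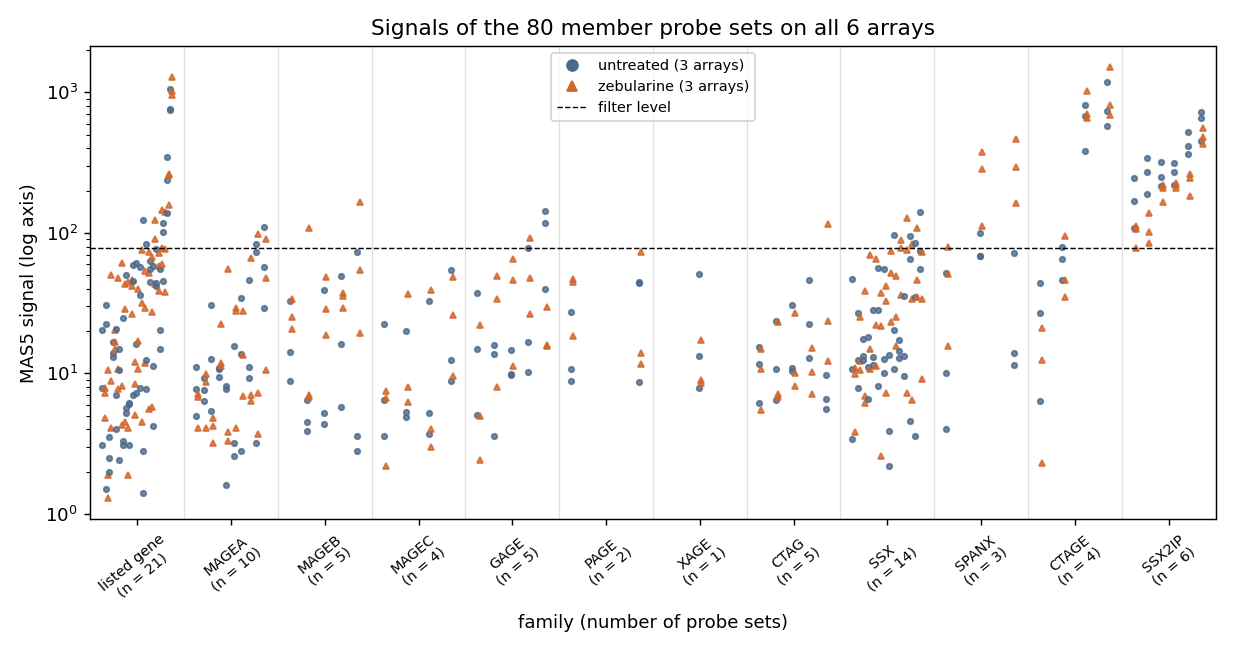
MAS5 signal on a log axis for each of the 80 member probe sets, grouped by family, with 3 untreated arrays as circles and 3 treated arrays as triangles per probe set; the dashed line is the filter level of 78.6. Most values lie below the line, PRAME (the brightest listed gene) lies above it on all arrays, as do 35 of 36 SSX2IP and 14 of 24 CTAGE values, and the SPANX family has 1 of 9 untreated and 7 of 9 treated values at or above it.

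SPANX genes encode small proteins of the nucleus of spermatids and sperm, and lie in a cluster on the X chromosome. The brightest SPANX probe set, annotated to SPANXA1, SPANXA2, SPANXB1 and SPANXC, read 13.9, 11.5 and 72.3 on the untreated and 162.4, 468.7 and 294.7 on the treated arrays of pairs 1, 2 and 3. The lowest treated signal was above the highest untreated one. All untreated signals lay under the filter level, so this probe set was tested through its treated arrays alone. Its p-values in fits with the filter are thus no independent support for a rise, and the size of its difference is uncertain. The means were 32.6 ± 34.4 and 309 ± 154 (SD, n = 3). The arrays measure whole cultures, so more cells with the transcript and more transcript per cell cannot be told apart. On the scale log2(signal + 16.34), which understates changes of dim genes, it rose by 2.83 ± 0.57 (standard error; limma with Benjamini-Hochberg adjustment, adjusted p = 0.0476, and 0.0118 with the replicate number as a block). It was the 1 member called at an adjusted p under 0.05 in either fit; limma called 0.325% of all tested probe sets higher and 0.295% lower, and 1.9% and 2.32% with the block. The call ended in each fit without 1 array except zebularine 1 (adjusted p = 0.0501 without untreated 3 to 0.317 without zebularine 2). It also ended with a smaller pseudocount, a stricter or no filter, quantile normalization or no variance trend (limma, adjusted p = 0.0638, 0.0568, 0.0815, 0.0687 and 0.13), with differences of 1.90 to 3.37 over all settings that used all arrays.

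A second SPANX probe set is annotated to SPANXA1, SPANXA2 and SPANXC. It read 99.9, 68.8 and 68.5 untreated and 111.6, 376.4 and 286.3 treated. The groups did not overlap, but in pair 1 the signals lay close together. The log2 difference of 1.39 ± 0.45 did not pass (limma, adjusted p = 0.227, and 0.0914 with the block). SPANXB1 alone is given for the remaining SPANX probe set, which was too dim to test. SPANXB1 read 51.8, 10 and 4 untreated and 15.7, 79.9 and 51.3 treated, so that it was lower in pair 1 and higher in pairs 2 and 3. A suffix of _s_at marks probes shared by several transcripts and _x_at probes that can bind related sequences; 17 and 29 of the 80 member probe sets carry them. Which SPANX copy gave the signal therefore cannot be told from these probe sets.

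The 250 bases before the start of the SPANX genes are shown because this family holds the called member, and because its copies share their upstream sequence as well. The sequences are those of RefSeq on GRCh38.p14, 5′ to 3′ on the gene's strand, with CpG dinucleotides in capitals. SPANXA1 lies on the minus strand at chrX:141584739-141584988, SPANXC on the minus strand at chrX:141242518-141242767 and SPANXB1 on the plus strand at chrX:141002344-141002593.
SPANXA1: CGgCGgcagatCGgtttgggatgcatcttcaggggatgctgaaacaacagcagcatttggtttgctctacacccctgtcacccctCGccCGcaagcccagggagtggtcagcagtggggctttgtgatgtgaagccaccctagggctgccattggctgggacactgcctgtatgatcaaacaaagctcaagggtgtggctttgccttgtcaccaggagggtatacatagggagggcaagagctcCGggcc
SPANXC: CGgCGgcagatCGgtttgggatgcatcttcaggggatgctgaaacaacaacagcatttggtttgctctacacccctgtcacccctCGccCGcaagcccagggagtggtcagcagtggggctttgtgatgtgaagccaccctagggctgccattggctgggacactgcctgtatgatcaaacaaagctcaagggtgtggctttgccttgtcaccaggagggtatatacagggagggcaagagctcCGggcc
SPANXB1: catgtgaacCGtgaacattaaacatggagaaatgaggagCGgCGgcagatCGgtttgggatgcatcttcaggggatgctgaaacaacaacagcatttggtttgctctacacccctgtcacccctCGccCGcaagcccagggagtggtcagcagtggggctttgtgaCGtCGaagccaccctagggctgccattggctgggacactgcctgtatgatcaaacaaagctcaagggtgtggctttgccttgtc
The window of SPANXA2 (plus strand, chrX:141589458-141589707) was identical to that of SPANXA1. SPANXC differed from both at 3 of 250 positions. SPANXB1 aligned with SPANXC over 210 positions, 209 of them identical, because its annotated start lies further upstream. The windows of SPANXA1, SPANXA2 and SPANXC held 6 CpGs and that of SPANXB1 held 8, against a median of 11 over 35116 promoter windows in the table (quartiles 3 and 23). These windows are thus neither rich nor bare in CpGs among all promoters.

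**Figure D2:**
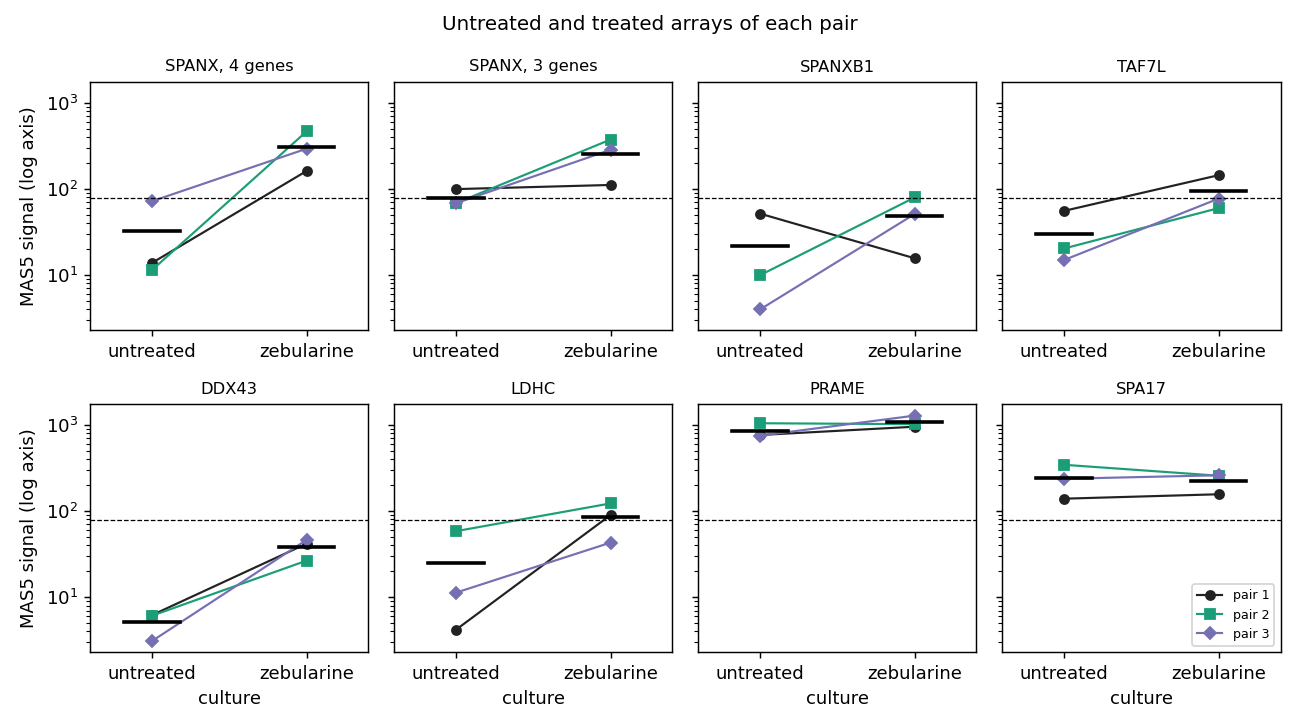
MAS5 signal on a log axis in untreated and treated cultures for 8 member probe sets, with 1 line per pair, short bars for the group means and a dashed line at the filter level of 78.6. The first SPANX probe set, TAF7L, DDX43 and LDHC were higher in all 3 pairs, while SPANXB1 was lower in pair 1, and PRAME and SPA17 stayed above the line in both groups.

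Among regulators of transcription and chromatin, PRAME stood apart by its level. PRAME, a tumour antigen that serves as a substrate receptor of a ubiquitin ligase, read 766.1, 1049 and 752.8 untreated and 955.9, 1022.8 and 1285.2 treated. It was thus bright before treatment, and the log2 difference of 0.35 ± 0.26 did not pass (limma, adjusted p = 0.618), at 0.31, -0.04 and 0.76 in the 3 pairs. TAF7L, a germ cell variant of the TFIID subunit TAF7, read 55.8, 20.4 and 15 untreated and 145, 60.1 and 77.5 treated. The groups did not overlap, and the treated signal was the higher one in each pair. TAF7L reached the filter level on 1 array only; in the fit without a filter its log2 difference was 1.27 ± 0.56 (limma, adjusted p = 0.494, and 0.264 with the block). BRDT, the testis bromodomain protein gene, read 20.7, 4 and 7 untreated and 48, 10.8 and 7.8 treated, higher in each pair yet under the filter level throughout. ZNF165, a zinc finger gene of testis, read 56.8, 7.9 and 36.2 against 31.8, 75.6 and 4.5, with no common direction.

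Genes of germ cell RNA metabolism were dim. DDX43, an RNA helicase gene known as the tumour antigen HAGE, read 6.2, 6.1 and 3.1 untreated and 41.9, 26.6 and 46.4 treated. These groups were well apart, although all 6 values lay under the filter level; without a filter the log2 difference was 1.33 ± 0.39 (limma, adjusted p = 0.26, and 0.162 with the block). DAZL, an RNA-binding regulator of germ cell development, read 14.8, 2.4 and 10.6 against 60.7, 4.3 and 8.2. DDX4, the VASA helicase of germ cells, read 3.1, 7.9 and 20.3 against 7.2, 4.8 and 7.9. PIWIL1, a piRNA-binding Argonaute protein gene, read 44.9, 55.6 and 62.8 against 67.1, 27.2 and 5.8. For DAZL, DDX4 and PIWIL1 the groups overlapped, and PIWIL1 was lower on the treated array in 2 of 3 pairs.

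None of the meiotic genes listed reached the filter level on 3 arrays. SYCP1, a transverse filament protein of the synaptonemal complex, read 3.1, 3.3 and 25 untreated and 43.6, 28.9 and 4.5 treated at its brighter probe set. At the dimmer one it read 3.5, 2 and 2.5 against 50.4, 4.1 and 8.8, so the groups did not overlap there, but 50.4 was the 1 treated value over 10. SYCP2, of the lateral element of that complex, read 2.8, 123 and 1.4 against 29.1, 53.6 and 11.8. SPO11, which makes the breaks that start recombination, read 5.2, 50.2 and 5.7 against 1.9, 4.1 and 44.5. TEX14, of the bridges between germ cells, read 7.8, 83.8 and 12.4 against 72.8, 5.6 and 51.9. In these, the highest values fell on untreated as well as treated arrays. TEX15, needed for meiotic recombination, read 76.5, 44.3 and 41.8 against 71.7, 38.8 and 57.8. MORC1, a germline silencing factor, read 22.6, 30.6 and 1.5 against 1.9, 1.3 and 10.6. SAGE1, an X-linked cancer-testis gene, read 60.6, 7.3 and 16.1 against 17.1, 39.9 and 10.8. For TEX15, MORC1 and SAGE1 the groups overlapped too.

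Among sperm proteins, SPA17 and CABYR had a signal without treatment. SPA17, a sperm surface and flagellar protein gene, read 139.4, 345.1 and 237.4 untreated and 156.9, 257.5 and 260.8 treated, a log2 difference of -0.04 ± 0.37 (limma, adjusted p = 0.98). CABYR, a calcium-binding protein gene of the sperm tail, read 45.6, 118.2 and 102.1 against 37.7, 77.3 and 139.8, a difference of -0.11 ± 0.57 (limma, adjusted p = 0.963). Neither passed the test, and the spread between pairs was larger than the difference between groups; without untreated 2 the values turned to 0.25 and 0.11. LDHC, the lactate dehydrogenase of sperm, read 4.2, 58.5 and 11.3 untreated and 90.2, 122.9 and 43.1 treated. The treated signal was the higher one in each pair, but untreated 2 lay above zebularine 3; without a filter the log2 difference was 1.46 ± 0.61 (limma, adjusted p = 0.459, and 0.219 with the block). ADAM2, a fertilin subunit gene, read 7, 59.3 and 45.2 against 5.1, 8.4 and 12, lower in each pair with overlapping groups. ACTL8, an actin-like gene, read 13.1, 16.6 and 13.9 against 20.5, 14.8 and 16.6.

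DDX43 and TAF7L are listed genes whose groups did not overlap at their brightest probe set, and their upstream 250 bases are shown beside those of SPANX. DDX43 is on the plus strand at chr6:73394578-73394827, and the more downstream of 2 annotated TAF7L starts is on the minus strand at chrX:101291335-101291584 (RefSeq, GRCh38.p14, CpGs in capitals).
DDX43: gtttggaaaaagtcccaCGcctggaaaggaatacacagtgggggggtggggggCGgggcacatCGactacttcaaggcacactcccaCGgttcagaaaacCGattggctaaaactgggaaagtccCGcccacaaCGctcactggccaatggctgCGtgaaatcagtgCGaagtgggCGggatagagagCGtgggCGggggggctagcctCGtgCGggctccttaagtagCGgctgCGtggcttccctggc
TAF7L: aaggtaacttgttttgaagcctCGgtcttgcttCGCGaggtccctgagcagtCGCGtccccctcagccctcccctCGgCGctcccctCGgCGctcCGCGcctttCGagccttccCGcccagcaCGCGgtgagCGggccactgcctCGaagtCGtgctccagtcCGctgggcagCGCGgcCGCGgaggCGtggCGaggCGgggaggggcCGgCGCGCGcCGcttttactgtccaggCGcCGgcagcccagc
They held 16 and 33 CpGs, and the other TAF7L start 8. Over the 84 windows of 65 member genes in the table the median was 8, and it was 17 over the 22 windows of listed genes. The letters CACGTG, a palindrome bound by E-box factors, were found in 12 of the 84 windows (14.3%, against 6.34% of all windows), of which 4 belonged to CTAGE, 3 to PAGE and 5 to listed genes. The letters GCGGGAA, read on both strands and part of a site of E2F factors, were in 9 (10.7%, against 5.52%), 6 of them SSX windows. Copies within a family share their sequence, so these counts are not over independent windows, and neither set of letters was in a SPANX window.

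MAGE genes, which encode partners of RING ubiquitin ligases, stayed dim. The 10 MAGEA probe sets ran from 1.6 to 109.7, with 4 of 60 values at the filter level, 2 in each group. The brightest, annotated to MAGEA2 and MAGEA2B, read 57.2, 109.7 and 29.4 untreated and 10.6, 91.1 and 48.1 treated, without a common direction. A probe set of MAGEA6 alone read 5.4, 30.9 and 12.6 against 3.2, 4.8 and 4.2, lower without overlap. That of MAGEA3 and MAGEA6 read 9.5, 10.9 and 10.7 against 11.2, 22.4 and 11.8, higher without overlap. MAGEB2 was the brightest of 5 MAGEB probe sets and read 2.8, 3.6 and 73.2 against 19.5, 54.4 and 165. It was higher in each pair, but untreated 3 lay above 2 of the treated arrays (log2 difference 1.25 ± 0.72 without a filter; limma, adjusted p = 0.617, and 0.263 with the block). Of MAGEB3 only zebularine 2 was high, with 6.5, 4.5 and 3.9 untreated and 7, 108.6 and 6.8 treated. The 4 MAGEC probe sets stayed at or under 54.4, the brightest being MAGEC3 with 54.4, 12.4 and 8.9 against 26, 48.4 and 9.6.

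SSX genes encode nuclear repressor proteins, known from the fusion with SS18 in synovial sarcoma. Their 14 probe sets ran from 2.2 to 140.6, with 4 of 42 values at the filter level in each group. The brightest, annotated to SSX2, SSX2B and SSX3, read 74.2, 140.6 and 55.6 untreated and 9.1, 73.4 and 33.7 treated, lower in each pair. Another, annotated to SSX2 and SSX2B, read 12.8, 17.2 and 14.4 against 78, 36.1 and 89, and one annotated to SSX4 and SSX4B read 2.2, 3.9 and 13.5 against 73.8, 52.1 and 23.1. In the latter probe sets the groups did not overlap and treated signals were higher (log2 differences 1.37 ± 0.49 and 1.48 ± 0.46 without a filter; limma, adjusted p = 0.365 and 0.291). Another probe set of SSX4 and SSX4B read 28.5, 8.2 and 56.7 against 2.6, 37.4 and 21.8. A further one read 46.9, 10.8 and 3.4 against 10.9, 9.9 and 3.8. Both had overlapping groups, with log2 differences of -0.35 and -0.41 without a filter. Probe sets of SSX2 and of SSX4 thus pointed in opposite directions, and none passed the test.

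GAGE, PAGE, XAGE and CTAG genes, further X-linked tumour antigen families, showed no common direction. The brightest GAGE probe set, annotated to 12 genes, read 117.4, 143 and 40.1 untreated and 15.6, 15.9 and 29.5 treated, so that the untreated arrays were the higher ones and the groups did not overlap (log2 difference -1.56 ± 0.56 without a filter; limma, adjusted p = 0.363). The other 4 stayed between 2.4 and 91.4. PAGE1 read 8.7, 44.1 and 45 against 72.9, 13.9 and 11.6, and the probe set of XAGE1A and XAGE1B 50.7, 13.4 and 7.9 against 8.6, 9 and 17.2. NY-ESO-1 is encoded by CTAG1A and CTAG1B, whose 3 probe sets stayed at or under 46.3. CTAG2 had the brightest of the 5 CTAG probe sets, at 5.6, 6.6 and 9.8 against 23.7, 116.5 and 12.2; the groups did not overlap, with 1 treated array far above the others.

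Over all members, treated signals were above all untreated signals in 10 of 80 probe sets (12.5%) and below them in 4 (5%). Over all 22215 probe sets without controls the shares were 7.94% and 6.76%. The treated signal was higher in all 3 pairs in 20 of 80 (25%) and lower in all 3 in 10 (12.5%), against 19.1% and 17% of all probe sets. Of the 67 members too dim to test, 8 had higher and 2 lower groups. Of all 8670 dim probe sets 584 (6.74%) had higher and 299 (3.45%) lower groups. In all 3 pairs 16 of the 67 were higher and 6 lower. Of the 8670 dim probe sets 1423 (16.4%) were higher and 830 (9.57%) lower in all 3 pairs. In the 70 probe sets without SSX2IP and CTAGE the treated array was the higher one in 51.4%, 52.9% and 70% in pairs 1, 2 and 3, against 48.9%, 48.7% and 56.3% of all probe sets, and 49.2%, 48.9% and 64.4% of all dim ones. Since family copies share probes and transcripts, and members were chosen with earlier results of these data known, these shares are descriptions. In the fit with no filter, 8 of the 80 had a higher and 3 a lower treated mean among those whose unadjusted p was under 0.05 (10% and 3.75%, against 4.99% and 4.68% of all probe sets), and 0 were called (limma; 0.113% and 0.0765% of all were called higher and lower). With the block and no filter the first SPANX probe set was called (adjusted p = 0.0227 in limma; 0.842% of all probe sets were called higher and 0.936% lower). Outside SPANX, SSX2IP and CTAGE, 18 of 201 untreated and 20 of 201 treated values reached the filter level.

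**Figure D3:**
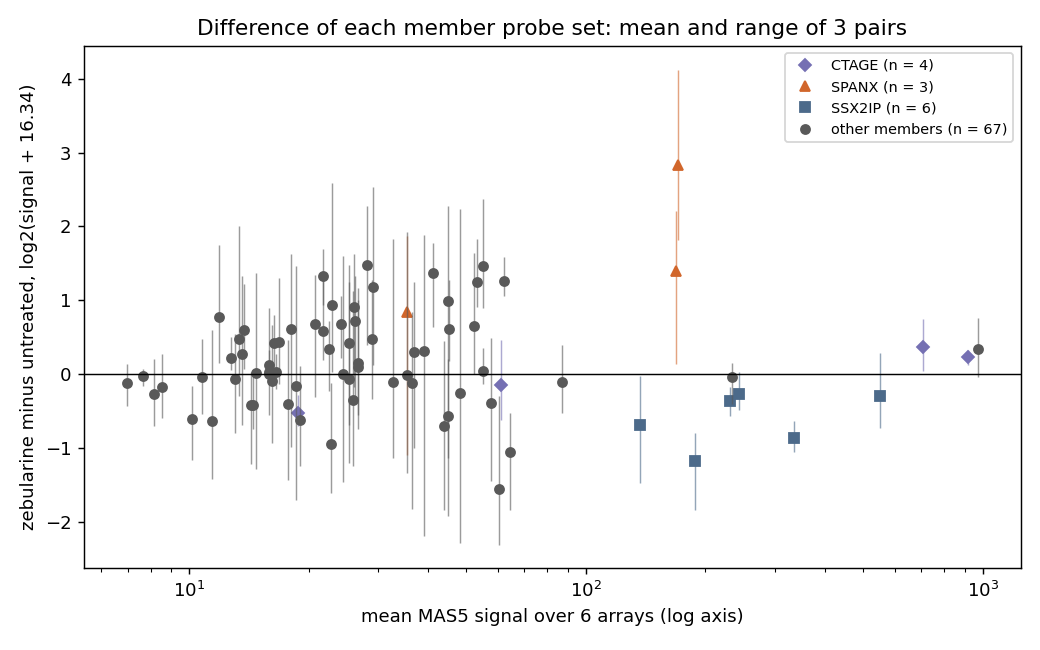
Difference between treated and untreated arrays, as log2(signal + 16.34), against the mean signal over 6 arrays on a log axis for each of the 80 member probe sets; points are means and vertical lines the range over 3 pairs. The SPANX probe set at 2.83 lies above all others, and most dim members have ranges that cross 0.

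Of the genes taken in by name alone, all 6 SSX2IP and 2 of 4 CTAGE probe sets were bright enough to test. SSX2IP, a protein of centrosomes and cell junctions, was lower on average at all 6 probe sets, by -0.27 to -1.17 on the log2 scale. At the second brightest it read 364.6, 525.2 and 418.1 untreated and 184.5, 245.4 and 264.4 treated, without overlap (limma, difference -0.87 ± 0.28, adjusted p = 0.233, and 0.0707 with the block). At another it read 188, 343.1 and 271.7 against 101.9, 84.2 and 139.1, again without overlap (limma, difference -1.17 ± 0.36, adjusted p = 0.202, and 0.0707 with the block). None of the 6 was called in either fit. The brightest SSX2IP probe set read 452.3, 725 and 659.5 against 556.2, 432.3 and 482.7. The brightest CTAGE probe set, annotated to 4 genes of that family, read 1190, 739.7 and 576.8 against 1505.1, 807.5 and 693.9 (limma, difference 0.24 ± 0.34, adjusted p = 0.819). The median log2 difference of the 13 tested members was -0.11, with 6 of them from SSX2IP; that of the 5 without SSX2IP and CTAGE was 0.35, and that of all 13545 tested probe sets -0.01.

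Most other germline genes on the array were too dim to test as well. Of 43 listed genes of meiosis and the piRNA pathway 15 were on the array under their own symbol, 6 were tested and 0 called in either fit (1 higher at an unadjusted p under 0.05, limma without the block, where 5.93% of all tested probe sets were higher and 6.64% lower). The brightest of these, the germ cell RNA-binding gene DND1, stood at 419 ± 144 untreated and 525 ± 97.6 treated (SD, n = 3). Of 35 genes of spermatids and sperm 29 were on the array, 7 were tested and 0 called in either fit (1 higher at an unadjusted p under 0.05). CCNA1, the germ cell cyclin A1, was the brightest, at 1439 ± 174 and 1893 ± 736. Of 28 other X-linked or related tumour antigen genes 11 were on the array, 4 were tested and 0 called in either fit (0 at an unadjusted p under 0.05), with MAGED1, a widely expressed MAGE gene, the brightest at 3250 ± 734 and 2762 ± 820. The median log2 differences of these 3 lists were 0.44, 0.66 and -0.38 over their tested genes.

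Genes of cell division that are also listed as cancer-testis antigens were bright in both groups. Of 17 listed, 11 were on the array and 10 were tested, with a median log2 difference of 0.66. Without the block 0 of the 10 were called, and 6 were higher at an unadjusted p under 0.05 (limma, against 5.93% of all tested probe sets). With the block, in which limma called 1.9% of all tested probe sets higher, 3 of the 10 rose. These were the mitotic kinase gene PBK (1167 ± 389 to 2245 ± 757), the cytokinesis gene CEP55 (720 ± 148 to 1353 ± 206) and the chromatin ATPase gene ATAD2 (595 ± 96.7 to 1167 ± 257), with adjusted p = 0.0234, 0.0372 and 0.0353 in limma with the block and 0.248, 0.169 and 0.159 without it. ATAD2, IGF2BP3 and SPAG9 in that list are not mitotic genes. Of 25 tested factors listed for the silencing of germline genes, 0 were called in either fit (limma). Without the block 1 was higher and 4 were lower where the unadjusted p was under 0.05. Of all tested probe sets 5.93% were higher and 6.64% lower at that level. The brightest of the 25 was CBX3, a heterochromatin protein, at 6613 ± 1035 and 7255 ± 1026. TET3 in that list is not a silencing factor. The lists were drawn up with earlier results of these data known, so their counts are descriptions.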

How the data were processed

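The deposited values are linear intensities that the authors computed with MAS5, per the submitters' processing notes; no version or setting is given there. MAS5 corrects each probe for background and mismatch, which makes low values uncertain, and no detection calls entered. All 62 control probe sets were left out. Values were taken as log2(intensity + 16.34), an eighth of the median, and a probe set was tested if it reached 78.6 on at least 3 of 6 arrays (13545 of 22215). The test was limma's (version 3.58.1, run in R 4.3.3; lmFit, eBayes with trend, two-sided, Benjamini-Hochberg over all tested probe sets, adjusted p under 0.05). An alternative fit had the replicate number as a block: same-numbered arrays share the start of their description in the labels, which do not say what it marks, and their deviations from the group means correlated at 0.323, 0.21 and 0.272. The p-values cover the spread between cultures of 1 line, and 6 arrays limit the precision. Arrays were simulated for the 13545 tested probe sets, with independent noise and no pair effect. Of changes added on the scale log2(intensity + 16.34), 6% of 2-fold and 60% of 4-fold ones were recovered, with 3 false calls. The simulation does not cover probe sets too dim to test. Probe sets with several symbols are given by all or the number of their symbols. By Entrez number 76 of 78 symbols matched RefSeq, with 0 changed. Promoter windows are RefSeq's (GRCh38.p14). Values are given for the brightest probe set of each listed gene and family, for called members, for those whose groups did not overlap and for some others. Members and lists were chosen with earlier results of these data known. Figures used matplotlib 3.10.9 in Python 3.11.15.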

Additional observations from a re-analysis of the deposited data

How the results depend on the processing

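The log2 difference of the first SPANX probe set was positive in all settings, from 1.90 to 3.37 with all arrays, 2.49 to 3.37 without 1 array and 2.19 to 3.34 without 1 pair; its call is the count of members called higher. That count was 1, and 0 with a smaller pseudocount, no filter, a stricter filter, quantile normalization or no variance trend. It was 0 to 1 in fits without 1 array (1 without zebularine 1) and 0 without 1 pair, and 1 with a larger pseudocount, a looser filter or the replicate block. Members called lower were 0 in all settings. Over all tested probe sets, 44 were called higher and 40 lower; no filter gave 25 and 17, no variance trend 4 and 2, the replicate block 258 and 314, the replicate block with no filter 187 and 208, and a smaller pseudocount 30 and 25. Leaving out 1 array or pair gave 0 to 42 higher and 0 to 55 lower. The median over tested members, -0.11, was 0.27 with the looser filter, 0.35 in a version chosen after the data were seen that left out SSX2IP and CTAGE genes, and -0.38 to 0.11 when 1 array or pair was left out. CABYR, at -0.11, ran from -0.49 to 0.28 when 1 array or pair was left out, above 0 without untreated 2, untreated 3, zebularine 1 or pair 2. SPA17, at -0.04, ran from -0.36 to 0.25, above 0 without untreated 2, zebularine 1 or pair 2. The brightest CTAGE probe set, at 0.24, ran from -0.091 without zebularine 1 to 0.52. The cause was not tested. The block changed no other call of a member. Signals near the bottom of the MAS5 scale limit what can be said of the 67 untested probe sets.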

Other observations

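Genes next to the SPANX cluster on the X chromosome, chosen after the SPANX values were seen, were dim or did not pass the test. LDOC1, a gene of retrotransposon origin that lies between SPANX copies in the RefSeq order, read 636.4, 518.5 and 678.5 on the untreated and 268.1, 398.9 and 429.2 on the treated arrays of pairs 1, 2 and 3. Its groups did not overlap and the treated arrays were the lower ones, but the log2 difference of -0.73 ± 0.28 did not pass (limma, adjusted p = 0.292, and 0.116 with the replicate number as a block). MAGEC3, MAGEC1 and MAGEC2, the next genes with a probe set on the far side, had no array at the filter level. Further on, FMR1, the fragile X gene, read 1224.3, 1472.2 and 1464.9 untreated and 1118.1, 1166.5 and 1959.1 treated (limma, difference -0.02 ± 0.27, adjusted p = 0.99). On the near side SOX3, MCF2 and F9 had no array at the filter level either. Further out there, ARHGEF6 read 1676.5, 1023.4 and 1564.6 untreated and 1020.9, 802.8 and 722.7 treated, lower without overlap. Its log2 difference was -0.72 ± 0.27 (limma, adjusted p = 0.297, and 0.0938 with the block). Over all probe sets 6.76% were lower without overlap. FGF13 and UBE2NL had log2 differences of 0.16 and 0.45 with overlapping groups (limma, adjusted p = 0.915 and 0.642).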
